A study of Arabidopsis thaliana with 4 samples.

Results

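The heterochromatic knob of chromosome 4 is a block of compact, repeat-rich chromatin that lies inside the gene-rich short arm in the Columbia accession of Arabidopsis thaliana. It was taken here as 1.6 to 2.3 Mb of chromosome 4 in the TAIR10 build. This span was set by position, but with earlier results of these data known. At a resolution of 100 kb it comprised 7 of the 1193 bins of the genome, and all 7 had signal in both tissues. Its neighbours were called the north flank (0 to 1.6 Mb, towards the chromosome end), the south flank (2.3 to 2.6 Mb), the pericentromere of chromosome 4 (2.6 to 5.7 Mb) and the long arm (5.7 to 18.6 Mb).

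Heterochromatin is condensed chromatin, rich in transposons and satellite repeats and poor in active genes, and in Arabidopsis nuclei most of it gathers around the centromeres in bodies called chromocentres. The knob is known to have arisen by an inversion within the short arm that carried pericentromeric heterochromatin away from the centromere. It thus places such chromatin among ordinary genes on both sides. Hi-C measures how often pairs of genomic sites are joined by ligation in crosslinked nuclei, so a higher value means that the sites were more often close together.

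Contacts were mapped in endosperm, the nutritive seed tissue beside the embryo, and in leaves from plants of 4 weeks. Both tissues were wild type of the Col-0 ecotype, labelled Col_wt x Col_wt, with no treatment, and the age of the endosperm is not given in the labels. The labels list 2 replicates per tissue, but the maps hold both replicates of a tissue together. There was therefore 1 map per tissue, no test between tissues was possible, and the printed intervals are 95% counting intervals that leave out the spread between plants.

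The leaf map held 18557893 contacts and the endosperm map 25033672, of which 11034545 and 14617359 joined different chromosomes. The knob had 171268 contacts in leaf and 244285 in endosperm, and its bins lay between 0.797 and 1.09 times the median bin in raw contacts. The leaf map also held a block of strong contact between chromosome 1 at 22.3 to 22.8 Mb and chromosome 2 at 1.1 to 1.6 Mb, where the mean was 4.54 times the interchromosomal mean. The strongest block of the same 5 by 5 bins between chromosomes 1 and 2 in endosperm was at another place and reached 1.72. Tissue identity could not be checked against marker genes, since these data hold no expression. In bulk nuclei, more nuclei with a contact and a more frequent contact in each nucleus cannot be told apart, and contacts between homologous copies are counted as contacts within a chromosome.

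In its gene content the knob was unlike the arm around it and close to the pericentromere. It held 54 protein-coding genes and 120 pseudogenes, a class that in this annotation includes many transposon remnants, or 2.22 pseudogenes per protein-coding gene. The north flank held 424 protein-coding genes and 31 pseudogenes, and the pericentromere of chromosome 4 held 179 and 496. Protein-coding genes covered 14.7% of the knob, 63.8% of the north flank and 11.4% of the pericentromere. Pseudogenes covered 37.9%, 3.28% and 36.6% of them.

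The gene content also differed along the knob. Protein-coding cover was lowest in the bin at 1.7 to 1.8 Mb, at 4.72% with 2 genes, and highest in the bin at 2.2 to 2.3 Mb, at 28.5% with 12 genes. Pseudogene cover ran from 22.8% at 1.7 to 1.8 Mb to 48.6% at 1.9 to 2.0 Mb. Of the 54 protein-coding genes, 16 carry a symbol. In map order the first of these are PFA-DSP4, which encodes a dual-specificity phosphatase, FIB, a fibrillin of plastid lipid bodies, OFP9 of the ovate family of transcriptional repressors, and MEE51, named for an arrest of embryo development. They are followed by ISU3, a scaffold protein for iron-sulfur clusters in mitochondria, PUX4, a partner of the segregase CDC48, the receptor-like protein RLP46, and RbcX1, a chaperone of Rubisco assembly. EMB2369, needed for embryo development, and WRKY42, a transcription factor, lie closer to the centromere. No expression was measured, so their activity in either tissue is not known from these data.

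Contacts of the knob with heterochromatin on other chromosomes differed between the tissues. An interchromosomal contact is given as the mean balanced contact divided by the mean over all pairs of bins on different chromosomes, so that 1 is the genome average. Contact of the knob with the pericentromeres of chromosomes 1, 2, 3 and 5 was 0.918 (0.903 to 0.932) in leaf and 1.08 (1.07 to 1.096) in endosperm. In the balanced maps the knob was thus below average in leaf and above it in endosperm, by a log2 difference of 0.24 (0.21 to 0.27). Contact with the arms of those chromosomes gave 0.930 in leaf against 0.971 in endosperm, a smaller log2 difference of 0.06 (0.05 to 0.07).

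The difference appeared against each of the other pericentromeres. With chromosome 2 the contact of the knob was 0.958 in leaf and 1.16 in endosperm, or a log2 difference of 0.27 (0.22 to 0.32). With chromosome 5 it was 0.893 and 1.05, and the log2 difference was 0.23 (0.17 to 0.29). Chromosome 3 gave 0.908 and 1.06 and chromosome 1 gave 0.8998 and 1.04, with log2 differences of 0.22 and 0.21. The 4 intervals overlapped, so no pericentromere stood apart in the size of the difference. The centre of the pericentromeres (bins within 1.1 Mb) gave 0.939 in leaf and 1.09 in endosperm, and the remainder gave 0.912 and 1.08.

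Contact was higher in endosperm in every bin of the knob, as it was in 90.0% of the 964 arm bins and 95.9% of the 197 pericentromere bins of the genome. At 1.6 to 1.7 Mb contact with the other pericentromeres was 0.915 in leaf and 1.08 in endosperm. At 1.7 to 1.8 Mb it was 0.943 and 1.09. The bin at 1.8 to 1.9 Mb had the highest endosperm value, with 0.937 in leaf and 1.14 in endosperm. This bin also had the largest log2 difference, 0.29 (0.21 to 0.36). Its values include a single pair, with 6.5 to 6.6 Mb of chromosome 2, at 13.5 in leaf and 26.2 in endosperm. In endosperm its contact was 1.44 with the pericentromere of chromosome 2, against 1.01, 1.09 and 0.931 with those of chromosomes 1, 3 and 5. Both maxima thus include that pair, and the rank of the bin without it was not computed.

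Further towards the centromere the leaf values spread more than the endosperm values. At 1.9 to 2.0 Mb contact was 0.886 in leaf and 1.06 in endosperm. The bin at 2.0 to 2.1 Mb had the highest leaf value, 0.992, against 1.11 in endosperm, and the smallest log2 difference, 0.17 (0.10 to 0.24). These values include a single pair, with 3.0 to 3.1 Mb of chromosome 2, at 18.1 in leaf and 11.3 in endosperm. In leaf its contact was 1.21 with the pericentromere of chromosome 2, against 0.955, 0.888 and 0.875 with those of chromosomes 1, 3 and 5. The rank of this bin without that pair was not computed either. At 2.1 to 2.2 Mb the values were 0.848 and 1.03, the lowest of the knob in both tissues. At 2.2 to 2.3 Mb they were 0.903 and 1.07. The groups of 7 values did not overlap between tissues, since the highest leaf value lay below the lowest endosperm value. This was not particular to the knob. The 16 north-flank bins had a highest leaf value of 0.971 and a lowest endosperm value of 0.985, and the 3 south-flank bins 0.939 and 1.01. The larger sets of 197 pericentromere bins and 914 arm bins without ends did overlap.

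All 7 knob bins were past a 1.1-fold difference, and all were higher in endosperm. For comparison, 26.6% of the 964 arm bins of the genome were past this limit in either direction, 23.4% were past it and higher in endosperm, and on the arms of chromosome 4 that share was 29.3%. Among the 197 pericentromere bins 86.8% were past it and higher in endosperm. The flanks were also above the arm background, with 8 of 16 north-flank bins and all 3 south-flank bins past it and higher in endosperm. The log2 difference of the flanks was 0.15 (0.13 to 0.17) in the north and 0.20 (0.16 to 0.25) in the south, and the latter interval overlaps that of the knob. With the arms of other chromosomes, 0 of the 7 knob bins were past 1.1-fold. Split by bin and partner chromosome, 27 of 28 combinations were higher in endosperm and 23 (82.1%) had a counting interval above 0. Over arm bins 81.9% of such combinations were higher in endosperm and 28.6% had an interval above 0, and over pericentromere bins the shares were 92.6% and 66.5%. The exception was the bin at 1.8 to 1.9 Mb with the pericentromere of chromosome 5, at 0.944 in leaf and 0.931 in endosperm.

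The size of this difference depends on what is taken as the average. When each pair was divided by the value expected from the interchromosomal totals of both bins, contact of the knob with the other pericentromeres was 1.00 in leaf and 1.03 in endosperm. That left a log2 difference of 0.05, and none of the knob bins was past 1.1-fold (0 of 7). In counts without balancing the log2 difference was 0.37, and without balancing and without 15 bins of extreme raw count it was 0.30. In that last setting the knob was below average in both tissues, at 0.768 in leaf and 0.944 in endosperm. At a limit of 1.2-fold, 2 of the 7 bins remained past it.

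**Figure D1:**
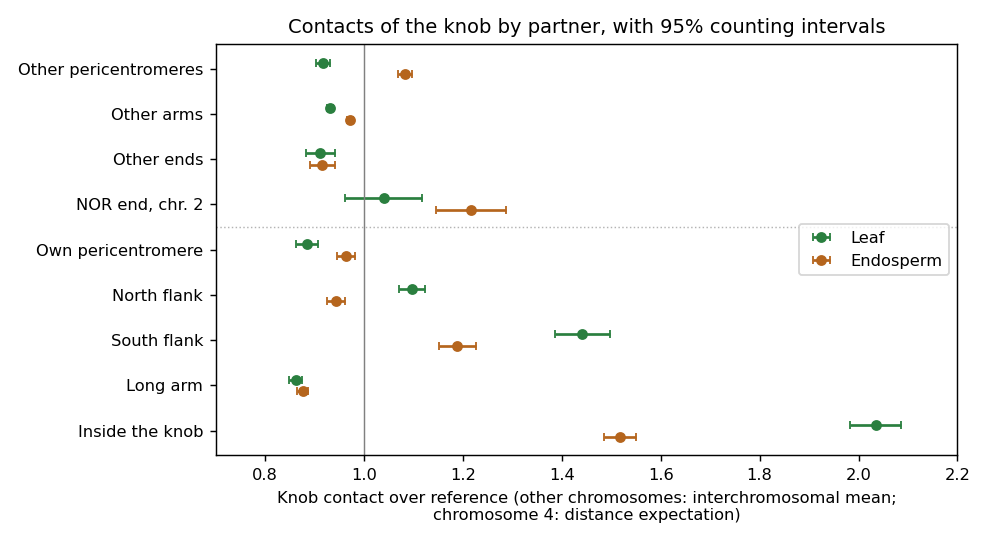
Contact of the knob with each class of partner in leaf and endosperm, as a multiple of the interchromosomal mean or of the distance expectation, with 95% counting intervals as bars. For the pericentromeres of other chromosomes the endosperm point lies at 1.08 and the leaf point at 0.918.

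Among other partners, the arms differed little. The arms of chromosome 1 gave 0.952 in leaf and 0.964 in endosperm, with a log2 difference of 0.02 (-0.00 to 0.04) whose interval includes 0. The arms of chromosome 2 gave the largest arm difference, from 0.915 to 0.982, a log2 value of 0.10 (0.07 to 0.13). The chromosome ends without a nucleolus organizer gave 0.912 and 0.916. The nucleolus organizers are arrays of ribosomal RNA genes at the north ends of chromosomes 2 and 4. With that end of chromosome 2 the knob was at 1.04 in leaf and 1.22 in endosperm, or a log2 difference of 0.23 (0.09 to 0.36). This rests on 35 pairs with 972 contacts in leaf and 2222 in endosperm, and it was not repeated without bins of extreme raw count.

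The knob was next compared with 40 windows of the same 7 bins, laid end to end along the arms of chromosomes 2 and 4. In leaf, 11 of the 40 windows had more contact with the pericentromeres of other chromosomes than the knob, and the windows ran from 0.878 to 0.996. In endosperm 0 of the 40 did, and they ran from 0.942 to 1.04. The log2 difference of the windows had a median of 0.10 and a highest value of 0.18, so 0 of 40 reached the 0.24 of the knob. Of the windows, 17.5% were past 1.1-fold and higher in endosperm.

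These rankings of the level also turned with the processing. In counts without balancing 38 of the 40 windows were above the knob in leaf and 12 in endosperm, while 0 of 40 were above it in log2 difference. With the expectation from the totals of both bins, 0 of 40 were above it in either tissue and 4 of 40 were above it in log2 difference.

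To set a common level aside, the contact with pericentromeres was also divided by the contact with arms in the same map. For the knob this ratio was 0.986 (0.970 to 1.00) in leaf and 1.11 (1.0997 to 1.13) in endosperm. In both tissues it lay between those of the arm and those of the pericentromere of chromosome 4. The north flank gave 0.878 in leaf and 0.970 in endosperm, the south flank 0.9001 and 1.02, and the long arm 0.891 and 0.980. The pericentromere of chromosome 4 gave 1.105 and 1.14.

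The ratio of the knob was above that of all 40 windows in leaf, where they ran from 0.823 to 0.944, and in endosperm, where they ran from 0.904 to 1.04. The highest window in leaf was at 8.5 to 9.2 Mb of chromosome 4, and in endosperm it was at 6.7 to 7.4 Mb of chromosome 2, next to the pericentromere. The lowest were at 17.6 to 18.3 Mb of chromosome 4 in leaf and 18.6 to 19.3 Mb of chromosome 2 in endosperm, both near chromosome ends. In counts without balancing 1 of 40 windows was above the knob in each tissue. The change of the ratio between tissues was not particular to the knob. Its log2 difference was 0.18 (0.15 to 0.21), the windows had a median of 0.15, and 5 of 40 were above the knob.

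**Figure D2:**
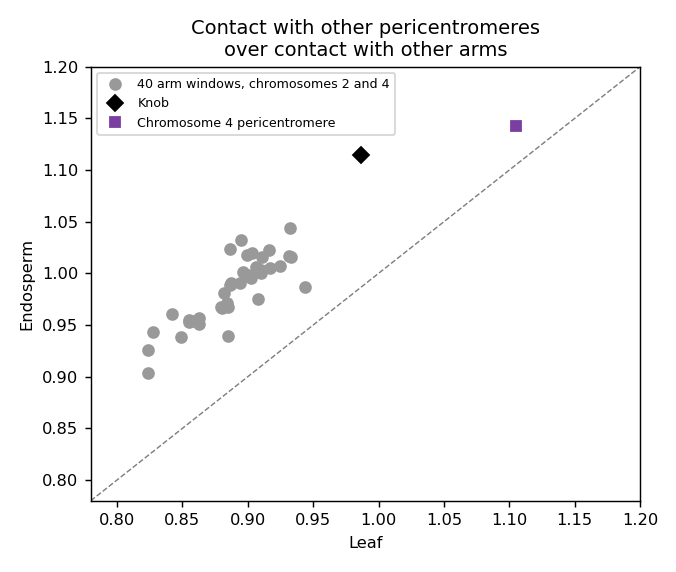
Contact with pericentromeres of other chromosomes divided by contact with their arms, in leaf (x axis) and endosperm (y axis), for the 40 arm windows, the knob and the pericentromere of chromosome 4, with the dashed line at equality. All 40 windows lie above the line and to the lower left of the knob at 0.986 and 1.11, and the pericentromere lies at 1.105 and 1.14.

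Bin by bin, the ratio followed the borders of the knob. In leaf the 7 knob bins ran from 0.892 to 1.05, with the highest value at 2.0 to 2.1 Mb. In endosperm they ran from 1.05 to 1.21, with the highest value at 1.8 to 1.9 Mb. Both of these highest bins hold a very strong single pair with a chromosome 2 pericentromere bin, which was kept in the values. Whether either bin stays highest without its pair was not computed. The flanking bin at 1.5 to 1.6 Mb had 0.920 in leaf and 1.03 in endosperm, and the flanking bin at 2.3 to 2.4 Mb had 0.872 and 1.02. In endosperm both neighbours lay below every knob bin. In leaf the bin at 2.1 to 2.2 Mb, at 0.892, overlapped with the flanks.

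**Figure D3:**
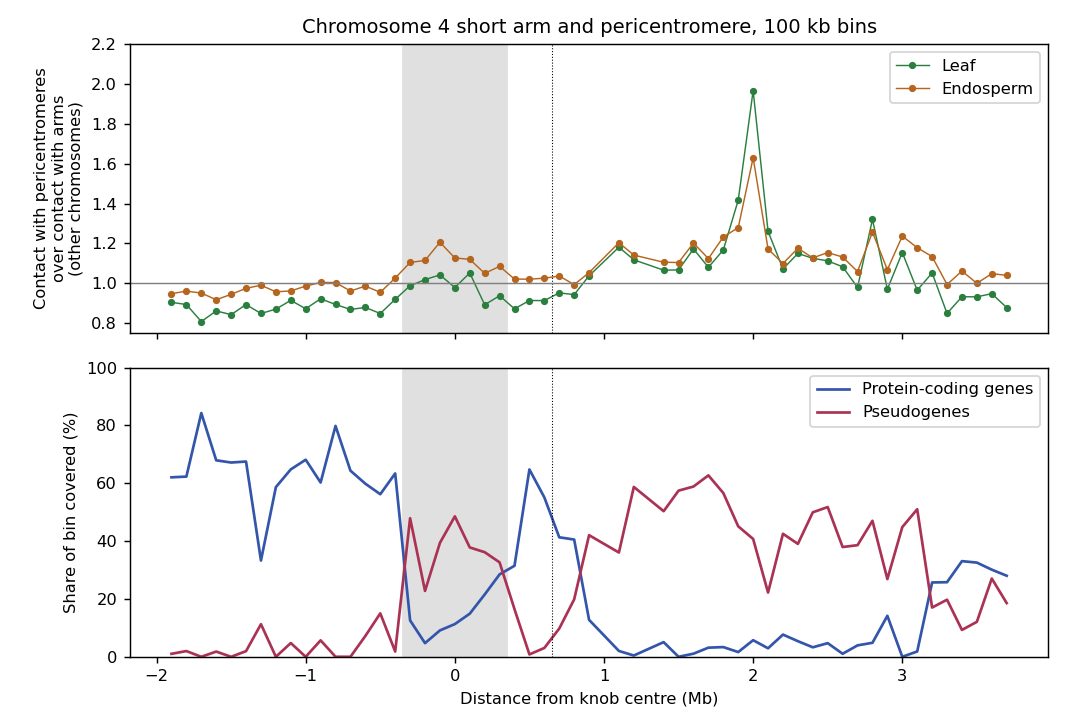
Top, contact with pericentromeres of other chromosomes over contact with their arms for each 100 kb bin of the chromosome 4 short arm and pericentromere (from the dotted line on), against distance from the centre of the knob in Mb; bottom, percent of each bin covered by protein-coding genes and by pseudogenes. Inside the grey span of the knob the endosperm ratio is 1.05 to 1.21, with very strong single pairs kept, and pseudogenes cover 22.8% to 48.6% of a bin.

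A few single pairs of bins carried very high contact. These pairs, with at least 3 times the interchromosomal mean in a tissue, were chosen after their values were seen. The strongest in endosperm joined the knob bin at 1.8 to 1.9 Mb with 6.5 to 6.6 Mb of chromosome 2, in its pericentromere, at 13.5 in leaf and 26.2 in endosperm. The 8 pairs around it averaged 0.811 and 0.765. The signal was thus held by 1 pair of bins and did not spread to its neighbours.

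The same knob bin had 11.1 in leaf and 21.5 in endosperm with 17.3 to 17.4 Mb of chromosome 3, which lies in an arm. The bin at 2.0 to 2.1 Mb had 18.1 and 11.3 with 3.0 to 3.1 Mb of chromosome 2, which was the strongest pair of the knob in leaf. The bin at 1.7 to 1.8 Mb had 6.69 and 4.27 with 4.2 to 4.3 Mb of chromosome 2. These 4 pairs were over the limit in both tissues. The knob had 5 such pairs of 6895 in leaf (0.0725%) and 6 in endosperm (0.0870%), beside 0.0729% and 0.0233% of all interchromosomal pairs. Sequence shared by the paired bins was not tested, since no genome sequence was used here.

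The leading partners were shared by the tissues. The 5 pericentromere bins with the most contact to the knob as a whole were the same in both. They were 3.0 to 3.1 Mb of chromosome 2 (3.21 in leaf, 2.39 in endosperm), 6.5 to 6.6 Mb (2.48 and 4.53) and 4.2 to 4.3 Mb (1.80 and 1.57) of that chromosome, then 14.2 to 14.3 Mb and 14.1 to 14.2 Mb of chromosome 3. The chromosome 3 bins gave 1.34 and 1.32 in leaf and 1.45 and 1.43 in endosperm, and their raw counts were 3.36 to 12.7 times the median bin.

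Leaving out the 3 chromosome 2 bins lowered the level but not the difference. Contact with the other pericentromeres was then 0.889 in leaf and 1.05 in endosperm, or a log2 difference of 0.24 (0.21 to 0.27). Without all pairs over 3 times the mean, the ratio of pericentromere to arm contact of the knob was 0.954 in leaf and 1.08 in endosperm. The highest windows then had 0.947 and 1.03, so 0 of 40 were above the knob in either tissue, although the leaf margin was small.

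The profile of knob contact over partner bins was described by correlations, whose points share maps, depth and balancing. Over the 168 pericentromere bins the Pearson correlation between leaf and endosperm was 0.72 and the Spearman correlation 0.33. Without the 3 leading bins they were 0.33 and 0.29 over 165 bins, so the first value rests on those bins. Over the 985 bins of the other chromosomes, the Pearson correlation of knob contact with pseudogene cover of the partner was -0.01 in leaf and 0.21 in endosperm. With protein-coding cover it was 0.02 and -0.22. Within classes of partner the endosperm correlation with pseudogene cover was weaker, at 0.04 over the 168 pericentromere bins and 0.09 over 817 arm bins. Among pericentromere bins, those richer in pseudogenes had a log2 difference of 0.22 (0.17 to 0.26) with the knob and those poorer in them 0.26 (0.22 to 0.30), with overlapping intervals.

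Within chromosome 4, contact falls with distance, so values are given over the mean of chromosome 4 at the same distance. Over that mean, contact between the bins of the knob was high in both tissues and lower in endosperm. It was 2.03 (1.98 to 2.09) in leaf and 1.52 (1.48 to 1.55) in endosperm, or a log2 difference of -0.42 (-0.47 to -0.38). In raw contacts, 6046 joined knob bins in leaf and 8559 in endosperm, beside 171268 and 244285 contacts of the knob in all. Relative to these totals the tissues were close, so the difference of -0.42 holds for the ratio to the expectation. The knob was above all 40 windows in each tissue. The windows lay from 0.616 up to 1.32 in leaf, with a median of 0.752, and from 0.828 to 1.18 in endosperm, with a median of 0.922. Contact inside 33 of the 40 windows was higher in endosperm, so the knob differed from most of them in direction, and 0 of 40 had a log2 difference as low as that of the knob.

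The pericentromere of chromosome 4 went the same way as the knob, from 1.40 in leaf to 1.06 in endosperm, or a log2 difference of -0.40 (-0.42 to -0.38). By distance, contact inside the knob in leaf was 2.11 at 0.1 Mb, 2.10 at 0.2 Mb, 1.95 at 0.3 Mb, 1.82 at 0.4 Mb, 1.55 at 0.5 Mb and 1.75 at 0.6 Mb. In endosperm the values at those distances were 1.49, 1.57, 1.52, 1.61, 1.43 and 1.45. Over the distance expectation, endosperm was therefore lower at every distance, with the widest gap at 0.1 and 0.2 Mb and little gap at 0.5 Mb. The expectation itself differed between tissues. At 0.2 Mb the summed balanced signal was 335 in leaf and 477 in endosperm, where 159 and 304 were expected. Balanced bin totals were 29020.5 to 29022.8 in leaf and 39632 to 39637 in endosperm. Relative to these totals, the signal at 0.2 Mb was not lower in endosperm. Over the bins of the knob, mean contact with the other knob bins was highest at 1.6 to 1.7 Mb, at 2.46 in leaf and 1.64 in endosperm, and lowest in leaf at 2.2 to 2.3 Mb, at 1.63.

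Short-range contact on the arms also differed between tissues, and it enters the distance expectation. As a share of a bin's own total, contact between adjacent bins was 2.55% in the knob in leaf and 2.31% in endosperm. The windows had a median of 0.913% in leaf and 1.44% in endosperm, and 0 of 40 were above the knob in either tissue. The pericentromere of chromosome 4 had 1.82% and 1.71%. Contacts within single bins, which the values above leave out, took 11.9% of the total in the knob in leaf and 8.91% in endosperm, against 7.94% to 10.7% and 7.35% to 8.82% in the windows.

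**Figure D4:**
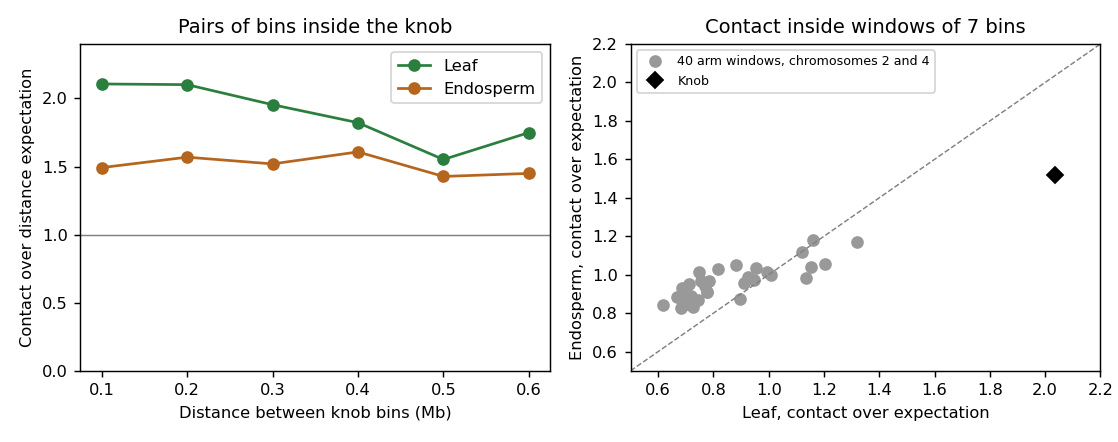
Left, contact between bins of the knob over the chromosome 4 mean at the same distance, against distance in Mb; right, contact inside the 40 windows and the knob, with leaf on the x axis and endosperm on the y axis. At 0.1 Mb the knob lies at 2.11 in leaf and 1.49 in endosperm, and in the right panel it lies at 2.03 and 1.52, beyond all windows.

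The knob is separated from the pericentromere of its own chromosome by only 0.3 Mb of gene-rich flank, yet in the balanced maps contact with it was below the distance expectation in both tissues. It was 0.885 (0.862 to 0.907) in leaf and 0.963 (0.944 to 0.982) in endosperm, or a log2 difference of 0.12 (0.08 to 0.17). In counts without balancing it was 0.964 and 1.05, so the endosperm level was then above the expectation. All 7 knob bins were higher in endosperm, by log2 values from 0.03 to 0.19, but in the bins from 1.6 to 1.9 Mb the counting interval included 0. For comparison, 14 of the 40 windows, 8 of 16 north-flank bins and all 3 south-flank bins were higher in endosperm with their own pericentromere. Of the 203 pairs of knob and pericentromere bins, 122 were higher in endosperm, and the share of such pairs elsewhere was not computed. The bin at 1.6 to 1.7 Mb had the most contact, with 1.01 in leaf and 1.08 in endosperm, although it lies farthest from the pericentromere.

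The difference depended on the part of the pericentromere. With its first megabase (2.6 to 3.6 Mb) contact was 0.986 in leaf and 1.07 in endosperm. With 3.6 to 4.6 Mb it was 0.811 and 0.940, the largest log2 difference, 0.21 (0.13 to 0.30). That part includes the bin at 3.9 to 4.0 Mb, whose raw count was 36.6 times the median bin in leaf and 26.5 times in endosperm. Bins of extreme raw count were left out only for the whole pericentromere, which then gave 0.892 and 0.971. With 4.6 to 5.7 Mb it was 0.846 and 0.851, and the interval of the log2 difference, -0.08 to 0.10, includes 0.

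Higher contact with the own pericentromere in endosperm was not particular to the knob. The window at the same number of bins on the other side, 6.0 to 6.7 Mb of chromosome 4, had 0.814 in leaf and 0.935 in endosperm, or a log2 difference of 0.20. The matching window of the chromosome 2 long arm, 7.0 to 7.7 Mb, had 0.958 and 0.917, a log2 difference of -0.06. The matching window of the chromosome 2 short arm, 0.7 to 1.4 Mb, had 0.450 and 0.915, and it overlaps the strong chromosome 1 block of the leaf map. Among all 40 windows, 3 had a larger log2 difference than the knob, 32 had more contact with their own pericentromere in leaf and 9 did in endosperm. The 3 included 0.3 to 1.0 Mb (0.89) and 1.0 to 1.7 Mb (0.71) of chromosome 2, on the short arm that holds the strong leaf block. The remaining window was 5.7 to 6.4 Mb of chromosome 4 (0.29).

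Over the distance expectation, contacts with the gene-rich flanks went the opposite way. With the north flank the knob had 1.097 (1.07 to 1.12) in leaf and 0.943 (0.924 to 0.962) in endosperm, or a log2 difference of -0.22. With the south flank it had 1.44 and 1.19, a log2 difference of -0.28. Of the 16 north-flank bins 15 were lower in endosperm, the exception being 0.1 to 0.2 Mb at 0.838 and 0.850, and all 3 south-flank bins were lower. How many single flank bins were lower around the arm windows was not computed. Over 27 windows, contact with the flank matching the north flank had a median of 0.894 in leaf and 0.969 in endosperm. In raw contacts the knob had 6569 with the north flank in leaf and 9607 in endosperm. With the south flank it had 2621 and 3859. Relative to the knob totals of 171268 and 244285, neither was lower in endosperm. Contact with the long arm differed little, at 0.861 in leaf and 0.876 in endosperm, with a log2 difference of 0.02 (-0.01 to 0.05). With the nucleolus organizer end of its own chromosome the knob had 0.946 and 0.872. Contact with the organizer end of chromosome 2 went the other way, but that was measured against the interchromosomal mean and not the distance expectation.

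The flanks also contacted each other across the knob. Contact of the north with the south flank was 1.48 (1.43 to 1.53) in leaf and 1.33 (1.29 to 1.37) in endosperm, or a log2 difference of -0.16 (-0.22 to -0.09). This was more than the knob itself had with the north flank, which lies nearer, by 1.35 times in leaf and 1.41 times in endosperm after the distance correction. Of 27 windows whose flanks could be laid out in the same way, 0 had as much contact across them. Their leaf values lay between 0.897 and 1.19 and their endosperm values between 0.935 and 1.15, and their highest ratio of contact across to contact with the far flank was 1.25 in leaf and 1.16 in endosperm. Inside the north flank contact was at the expectation, 1.01 and 1.00, and with the pericentromere it was 0.854 in both tissues.

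**Figure D5:**
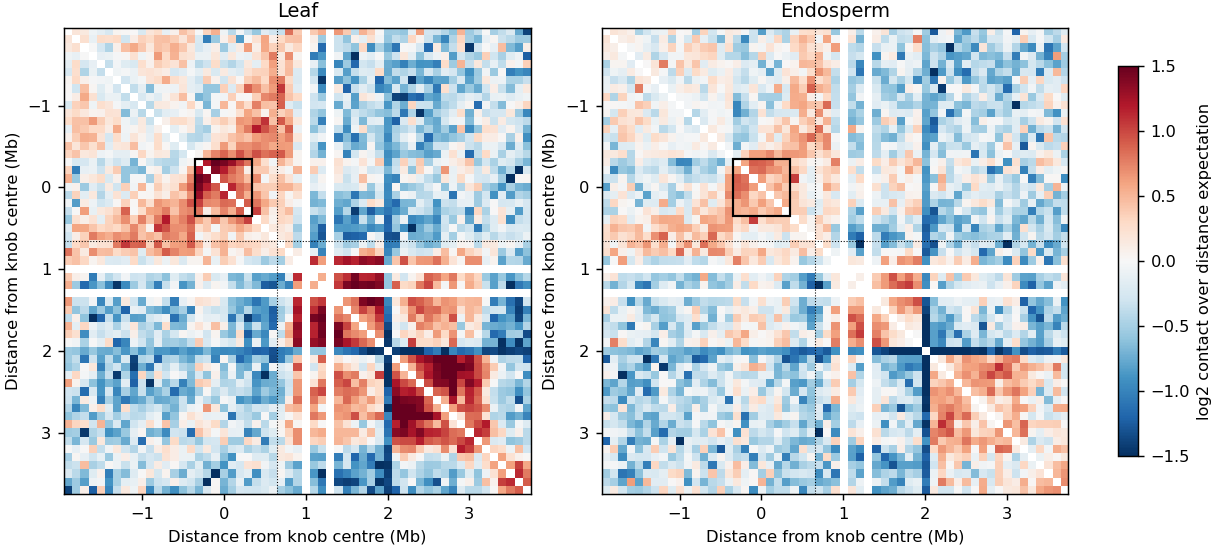
Log2 contact over the chromosome 4 mean at the same distance for pairs of 100 kb bins around the knob in leaf and endosperm, with axes in Mb from the centre of the knob, the knob boxed and the pericentromere starting at the dotted line; white marks the diagonal and unused bins. The box is stronger in leaf (2.03 on the linear scale) than in endosperm (1.52), and the patch joining the flanks across the knob (1.48 and 1.33) is visible in both.

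The borders of the knob were examined by contact between the 3 bins on each side of a position, over the distance expectation, where a low value would mark a barrier. At 1.6 Mb the value was 1.097 in leaf and 0.930 in endosperm, and the border at 2.3 Mb had 1.56 and 1.18. Of 138 positions along chromosome 4, 116 in leaf and 69 in endosperm were lower than the border at 1.6 Mb, and 131 and 128 were lower than the border at 2.3 Mb. Neither border was thus a low point at this resolution. The highest position of all was at 1.8 Mb, inside the knob, in both tissues, at 2.37 in leaf and 1.73 in endosperm.

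The share of contacts that went to other chromosomes hardly differed in the knob between tissues, at -0.20 percentage points (-0.51 to 0.11), while it was lower in endosperm on either side. It was 74.9% in leaf and 72.8% in endosperm in the north flank, -2.10 points, and -1.37 points in the south flank. The long arm had -3.77 points and the pericentromere of chromosome 4 had 0.62 points. In all 40 windows the share was lower in endosperm, by -8.02 to -1.66 points, so 0 of 40 were above the knob.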

How the data were processed

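The authors deposited 1 contact matrix per tissue at 100 kb bins and 1 at 200 kb, each holding replicates 1 and 2 together, as the file names state. Their values are balanced contact signal, from iterative correction in which the authors scaled every bin to the same total. Per the submitters' processing notes, HiC-Pro 2.9.0 and Bowtie2 were used with the TAIR10 build. No source used here names the restriction enzyme or the read filters.

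Each deposited signal value is a contact count divided by a factor for each of its bins, so whole counts were recovered from the 100 kb signal (100% of pairs whole within 0.01). Bins without signal (23 per map) in either tissue were left out, so 1168 of 1193 bins were used. The median bin had 26456 contacts in leaf and 36409.5 in endosperm. Intervals are analytic 95% Poisson intervals of these counts with the balancing factors kept; they cover counting error only. Ratios are endosperm over leaf. Gene names and bin membership came from RefSeq (assembly TAIR10.1). Named regions were each knob bin, each partner class, the 5 leading pericentromere bins and the highest and lowest windows, and named genes were the first 10 with a symbol. The knob, its partners and windows were chosen with earlier results of these data known. The scripts were tested on simulated data. Python 3.11.15, numpy 2.4.6, scipy 1.17.1 and pandas 2.3.3 were used. Bins with raw counts above 1.5 or below 0.5 times the median were left out as an alternative, 15 in all. Other alternatives were 200 kb bins, counts without balancing, other expectations and other borders of the knob.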

Additional observations from a re-analysis of the deposited data

How the results depend on the processing

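No paired analysis was possible because the maps hold both replicates of each tissue together, and for the same reason no replicate could be left out. Contact of the knob with its own pericentromere kept its direction and lay between 0.11 and 0.17 (log2) under all 8 alternatives, and contact of the north with the south flank lay between -0.20 and -0.15 under 4. Contact inside the knob over the distance expectation (-0.42) kept its direction under 8 alternatives. It moved beyond its counting interval at 200 kb (-0.50) and in counts without balancing (-0.37). Contact with the other pericentromeres (0.24) kept its direction under 9 alternatives. It was 0.37 in counts without balancing, 0.30 in those counts without repeat bins and 0.046 with the expectation from both bins' interchromosomal totals. Contact with the arms of other chromosomes (0.06) was 0.093, 0.097 and -0.0072 under the same 3 settings, the last a reversed direction, and 0.048 with the knob taken as 1.5 to 2.4 Mb. The count of 7 knob bins past 1.1-fold was 2 at 1.2-fold and 0 with the expectation from totals. The expectation from totals divides out differences in the whole interchromosomal level of the knob bins and of the partner bins. What causes the shifts was not tested. Leaving out all pairs of chromosomes 1 and 2, with partners on chromosomes 3 and 5, gave 0.21 for the other pericentromeres. The settings without both balancing and repeat bins, those for the flanks, and those without leading bins or strong pairs were chosen after seeing the data. Depth limits single bins, whose widest interval among the knob bins was 0.12 to 0.28 at 1.7 to 1.8 Mb, and the spread between plants is unknown.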
